A study of Mus musculus with 57 samples.

Results

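The genes described here are the nuclear-encoded subunits of the oxidative phosphorylation complexes, as read by arrays of mouse kidney after renal ischemia-reperfusion injury (IRI). They were taken by gene symbol: probe sets with exactly 1 symbol beginning Nduf (complex I, the a, b, c, s and v series), Sdha to Sdhd (complex II), Uqcr (complex III), Cox4 to Cox8 (complex IV) or Atp5 (complex V), without Cox8b and without pseudogene symbols. This gave 80 genes of the 19938 that had a probe set of their own: 35 in complex I, 4 in complex II, 8 in complex III, 16 in complex IV and 17 in complex V. Of these, 16 genes had several probe sets, and the probe set with the highest mean was used. The symbol rule used no measured value, but it was chosen with earlier results of these data known. The choice among probe sets used their mean intensity. All 80 genes passed the filter on dim genes. The split into complexes follows the symbols, so Ndufa4, now regarded as a complex IV subunit, and its paralog Ndufa4l2 are counted with complex I. Atp5s and Atp5sl were not analysed here.

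Oxidative phosphorylation couples the oxidation of nutrients to ATP synthesis at the inner mitochondrial membrane. Complexes I and II pass electrons from NADH and succinate to ubiquinone, complex III passes them on to cytochrome c, complex IV reduces oxygen to water, and complex V uses the proton gradient to make ATP. Complex II is also an enzyme of the tricarboxylic acid cycle and, unlike the other complexes, has no subunit encoded by mitochondrial DNA. Kidney tubules, the proximal tubule above all, depend on oxidative phosphorylation for solute transport, and loss of mitochondrial function is a known feature of their ischemic injury.

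The series holds 57 arrays in 19 groups, all from male mice of mixed C57BL/6 and 129 background. IRI was a bilateral clamp of the renal pedicles for 28 min, with kidneys taken at 24 h unless stated otherwise. In 51 arrays the RNA came from translating ribosome affinity purification (TRAP), in which ribosomes carrying eGFP-tagged L10a protein are pulled down with anti-GFP beads, so that the sample is enriched for ribosome-bound RNA of the tagged cells. The tag, an eGFP-L10a allele at Rosa26, was switched on by Six2-Cre (nephron line), Foxd1-Cre (interstitial line), Cdh5-Cre (endothelial line) or Lyz2-Cre (myeloid line). Each line had no-surgery, sham and IRI 24 h groups of 3 arrays, and the nephron line also had 3 arrays at 4 h after IRI. There were 2 kinds of pull-down background: kidneys of L10a mice without Cre (2 sham and 4 IRI arrays) and of untagged wild-type mice (2 sham and 4 IRI arrays). Total kidney RNA of L10a mice gave 3 sham and 3 IRI arrays. The mice were 8 weeks old in the sham and IRI groups of the nephron line, in both backgrounds and for total RNA, and 6 weeks old in the nephron no-surgery group and throughout the interstitial and endothelial lines. In the myeloid line the IRI mice were 9.5 weeks old and the others 7 weeks. Cre acts in the lineage, so a tag marks every cell descended from one in which Cre was active; Foxd1 is also normally active in podocytes, and Lyz2 in neutrophils as well as macrophages. The genotype of the L10a mice is given as homozygous in one label and as heterozygous in another, and the wild-type mice are called C57BL/6 in their titles and mixed in the strain label. Nothing beyond the numbering of biological replicates says that each array came from a separate animal, so the p-values measure the spread between these samples.

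Median intensity lay between 105.8 and 128.4 on the TRAP arrays and between 43.9 and 53.3 on the total RNA arrays, which were normalized apart, so levels are compared only within each kind. The median residual SD of the 80 genes was 0.169 on the log2 scale, against 0.152 for all genes. Replicate 3 of the total RNA IRI group stood apart from the other arrays of its group. The markers of the labelled cell types were present: 9 of 9 endothelial genes were higher in the endothelial line without surgery than in the mean of the other lines, as were 10 of 11 interstitial genes in the interstitial line, and 11 of 14 proximal tubule genes in the nephron line. All 11 macrophage genes were higher in the myeloid line, but all 11 were also higher in the endothelial line. Every TRAP group gave signal from proximal tubule genes, including the wild-type background, where their summed intensity was 91688 to 94562 in sham. The arrays measure RNA per unit of RNA, so fewer cells of a type and less RNA per cell cannot be told apart.

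All 4 genes of complex II fell at 24 h in the nephron line, as described below. At 4 h Sdha was higher than sham, Sdhc was lower, and Sdhb and Sdhd were not called. For this reason promoter sequences are shown for Sdha, Sdhb and Sdhd, though not for Sdhc. They cover the 250 bases upstream of the RefSeq start on GRCm38.p6, written 5' to 3' on the gene's strand, at chr13:74350241-74350490 (minus strand) for Sdha, chr4:140961021-140961270 (plus strand) for Sdhb and chr9:50603850-50604099 (minus strand) for Sdhd. Capitals mark matches, on either strand, to the NRF1 half-site TGCGCA or the ETS motif CCGGAAG, both of which occur in promoters of respiratory chain genes, or to the estrogen-related receptor half-site AAGGTCA or the YY1 motif AAGATGGC.
Sdha: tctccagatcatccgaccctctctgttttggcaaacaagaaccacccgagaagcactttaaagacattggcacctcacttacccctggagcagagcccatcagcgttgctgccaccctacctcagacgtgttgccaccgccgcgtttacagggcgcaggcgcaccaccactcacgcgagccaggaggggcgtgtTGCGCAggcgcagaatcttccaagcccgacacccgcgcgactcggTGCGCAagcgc
Sdhb: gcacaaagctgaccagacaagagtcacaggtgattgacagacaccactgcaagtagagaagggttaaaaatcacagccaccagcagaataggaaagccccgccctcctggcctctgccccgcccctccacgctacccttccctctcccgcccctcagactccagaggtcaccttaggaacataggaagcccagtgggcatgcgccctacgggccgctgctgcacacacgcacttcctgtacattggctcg
Sdhd: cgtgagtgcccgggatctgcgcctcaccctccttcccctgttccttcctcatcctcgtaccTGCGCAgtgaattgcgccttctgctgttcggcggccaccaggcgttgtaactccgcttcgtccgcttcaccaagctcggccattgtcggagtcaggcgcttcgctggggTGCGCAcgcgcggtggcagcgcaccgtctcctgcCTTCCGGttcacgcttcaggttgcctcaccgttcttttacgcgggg
Sdha had 2 matches, both NRF1 half-sites, 56 and 11 bases upstream of the start, Sdhb had 0, and Sdhd had 3, with NRF1 half-sites at 189 and 80 and an ETS motif at 46 bases. RefSeq promoters were held for 65 of the 80 genes. A gene counted as having a motif if any of its promoters held a match. The NRF1 half-site was in 13 of the 65 (20%) against 7.36% of 27025 genes, in windows of the same length. The ETS motif was in 12 (18.5%) against 7.83%. The estrogen-related receptor half-site was in 4 (6.15%) against 4.7%, and the YY1 motif in 1 (1.54%) against 1.83%. These are letter matches on either strand, overlapping ones included, and do not show binding.

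The first comparison asked how the subunits changed in nephron cells 24 h after injury. In the nephron line, 24 of the 80 genes fell and 0 rose (limma, Benjamini-Hochberg adjusted p over 19244 genes, threshold 0.05, n = 3 arrays per group). Of all genes tested, 14.7% were called lower and 13.9% higher. The 24 were 30% of the 80. At an unadjusted p under 0.05, 32 genes were lower and 1 higher, which was Cox7a2l at 0.46 (adjusted p = 0.098). The median log2 difference of the 80 was -0.21, against -0.04 for all genes, and 70 of the 80 lay below 0. The falls were spread unevenly over the complexes: 14 of 35 genes in complex I, 4 of 4 in complex II, 2 of 8 in complex III, 2 of 16 in complex IV and 2 of 17 in complex V. The complex medians were -0.35, -0.46, -0.28, -0.06 and -0.09 in that order. The difference between complexes was not tested.

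In complex I, the entry point for NADH, the deepest fall was in Ndufa2, an accessory subunit of the matrix arm. Its log2 values were 11.97, 11.94 and 11.79 in sham and 10.62, 11.03 and 10.92 after IRI. All 3 IRI arrays lay below all 3 sham arrays, a difference of -1.05 ± 0.19 (SE), or 2.07-fold lower, with an adjusted p of 5.6e-05. Ndufs5, an accessory subunit on the intermembrane side, read 10.24, 10.11 and 10.16 in sham and 9.22, 9.39 and 9.58 after IRI. The groups were again apart, by -0.77 ± 0.27 (adjusted p = 0.027). Ndufs1, the core subunit that holds several of the iron-sulfur clusters, went from 10.84, 10.9 and 10.89 to 10.33, 10.15 and 10.24. It fell by 0.64 ± 0.2 (adjusted p = 0.016). Ndufs3, a core subunit of the peripheral arm, read 12.16, 12.06 and 12.19 in sham and 11.46, 11.57 and 11.6 after IRI. It fell by 0.59 ± 0.07 (adjusted p = 7.5e-08), and Ndufv2, an iron-sulfur subunit of the NADH-oxidizing tip, fell by 0.23 ± 0.08 (adjusted p = 0.026). The other core subunits did not pass: Ndufs8 differed by -0.61 (adjusted p = 0.058), Ndufs7 by -0.35 (0.4) and Ndufv1, which binds NADH and flavin, by -0.27 (0.15). The variance of each gene was pooled over all 45 arrays of the fit, total RNA included. The SD of Ndufs7 was 0.03 in nephron IRI and 0.06 in nephron sham, but 1.37 in total RNA IRI. For Ndufs8 these were 0.13, 0.07 and 1.15. The part of that spread in the missing calls was not tested. Ndufs1 lost its call without IRI replicate 2 (adjusted p = 0.057), and Ndufs5 lost it in 5 of the 6 fits that left out 1 array.

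All 4 subunits of complex II fell. Sdhd, a membrane anchor, read 11.67, 11.69 and 11.81 in sham and 11.08, 11.13 and 11.3 after IRI, a difference of -0.55 ± 0.1 (adjusted p = 5.4e-05). Sdha, the flavoprotein that oxidizes succinate, went from 12.07, 12.06 and 12.15 to 11.69, 11.54 and 11.67, a difference of -0.46 ± 0.12 (adjusted p = 0.0021). Sdhc, the other membrane anchor, went from 12.7, 12.77 and 12.8 to 12.25, 12.43 and 12.24, a difference of -0.45 ± 0.13 (adjusted p = 0.0067). For these 3 genes every IRI array lay below every sham array. Sdhb, the iron-sulfur subunit, was nearest to its sham level, at 12.04, 11.8 and 11.96 after IRI against 12.22, 12.09 and 12.11. Its difference of -0.21 ± 0.08 (adjusted p = 0.037) lost the call in 4 of the 6 fits that left out 1 array.

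In complex III, Uqcrfs1, the Rieske iron-sulfur protein, read 11.08, 11.07 and 11.06 in sham and 10.55, 10.43 and 10.54 after IRI. It fell by 0.56 ± 0.15 (adjusted p = 0.0032), while Uqcrh, the hinge protein next to cytochrome c1, fell by 0.34 ± 0.12 (adjusted p = 0.027). The core proteins Uqcrc1 and Uqcrc2 differed by -0.36 and -0.23 (adjusted p = 0.089 and 0.065). In complex IV, both genes that fell are isoforms best known from heart and skeletal muscle. Cox6a2 went from 9.25, 9.07 and 9.63 to 8.03, 7.78 and 7.86, which was 2.69-fold lower (-1.43 ± 0.18, adjusted p = 1.4e-07) and the deepest fall of the 80. Its sham mean of 9.32 was itself above the 8.40 of the no-surgery arrays. Cox7a1 went from 10.95, 10.83 and 10.88 to 9.87, 10.02 and 10.15 (-0.87 ± 0.23, adjusted p = 0.0036). Their widely expressed counterparts Cox6a1 and Cox7a2 differed by 0.15 and -0.08 (adjusted p = 0.55 and 0.54). In complex V, Atp5e, the epsilon subunit of the central stalk, fell by 0.64 ± 0.19 (adjusted p = 0.012) and Atp5j2, subunit f of the membrane part, by 0.21 ± 0.08 (adjusted p = 0.041). The catalytic beta subunit Atp5b differed by -0.08 (adjusted p = 0.36), and the alpha subunit Atp5a1 by -0.18 (adjusted p = 0.33).

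Markers of tubule segments moved in the same arrays. Of the 14 proximal tubule genes 6 fell, and their summed intensity was 76828 to 81397 in sham and 56118 to 61005 after IRI. Of the 9 genes that mark the distal nephron, from the thick ascending limb on, 6 fell, from a sum of 30189 to 33010 down to 18231 to 20109. The part of these shifts in the falls of the subunits was not tested. For Ndufc1 the probe set used fell (-0.40, adjusted p = 0.036) and the next did not pass (-0.18, adjusted p = 0.36), and for Cox7b the next one fell (-0.25, adjusted p = 0.017) where the one used did not (-0.06, adjusted p = 0.67). The count of 24 went down to 15 without IRI replicate 1. It went up to 39 when the sham and IRI arrays were fitted alone, with their spread in place of the pooled one.

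**Figure D1:**
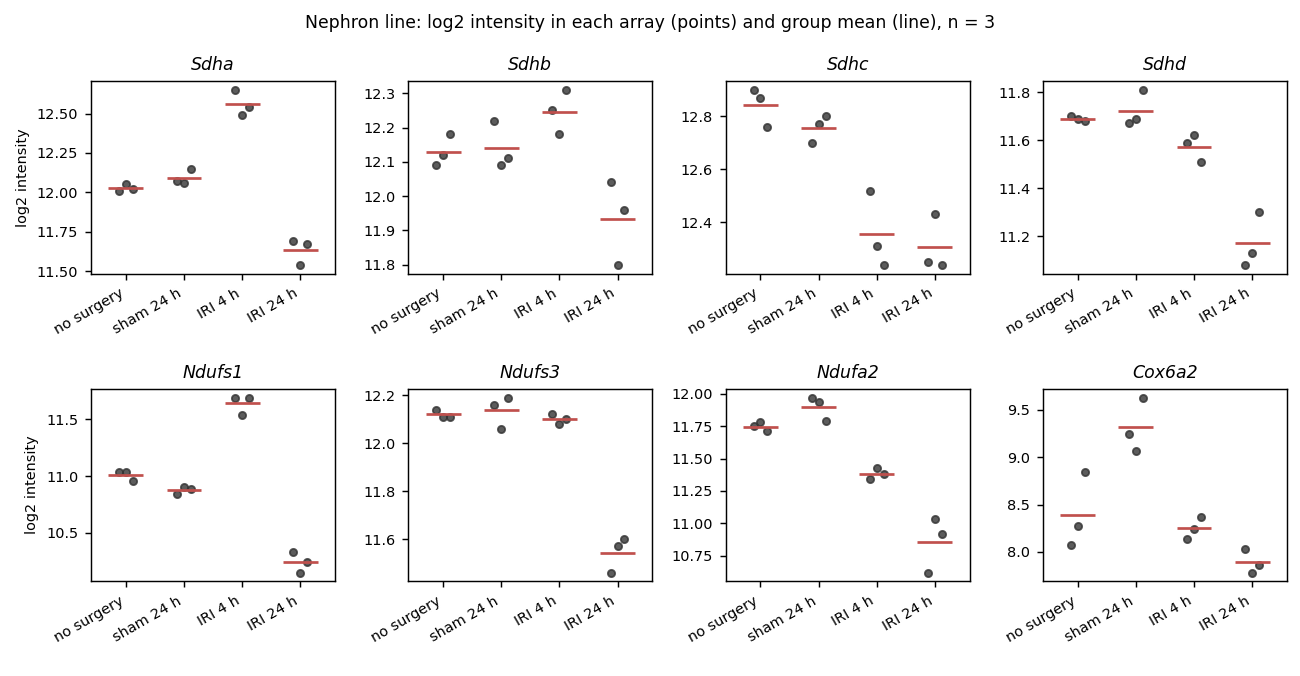
Log2 intensity of 8 genes on each nephron-line array (points) with the group mean (line), in the no-surgery, sham 24 h, IRI 4 h and IRI 24 h groups, n = 3 each. Sdha and Ndufs1 lie above sham at 4 h and below it at 24 h. Cox6a2 is below sham at 4 h, near its no-surgery level.

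No sham group was taken at 4 h, so the 4 h arrays are set against the shams of 24 h, and time since surgery and injury cannot be told apart. At 4 h the nephron line gave a mixed picture: 4 genes (5%) fell and 7 (8.75%) rose, where 10.6% of all genes were lower and 7.52% higher. The median of the 80 was 0.04, against -0.05 for all genes. Sdha rose, with 12.65, 12.49 and 12.54 at 4 h against the sham values above, so that the groups did not overlap (0.46 ± 0.12, adjusted p = 0.0035). Ndufs1 rose too, to 11.69, 11.54 and 11.69 (0.76 ± 0.2, adjusted p = 0.007). Both genes therefore stood above sham at 4 h and below it at 24 h. Within complex II, Sdhc went the other way, at 12.52, 12.31 and 12.24 (-0.40 ± 0.13, adjusted p = 0.026), while Sdhb and Sdhd differed from sham by 0.11 and -0.15 (adjusted p = 0.39 and 0.36). The other rises were in Ndufa1, a membrane-arm accessory subunit, Ndufb6, Ndufv1, Atp5a1 and Cox7a2, between 0.31 and 0.86. Ndufa1, with the highest of these, read 11.02, 10.98 and 11.08 at 4 h against 10.41, 10.02 and 10.07 in sham. Cox6a2 was at 8.14, 8.24 and 8.37, below all sham arrays (-1.07 ± 0.18, adjusted p = 3.7e-05). Its mean of 8.25 at 4 h was near the 8.40 of the no-surgery arrays, while the sham mean was 9.32. An early fall and a raised sham level can therefore not be told apart for this gene. Cox6b2, best known as a testis isoform, fell by 0.61 (adjusted p = 0.047) and Atp5j2 by 0.23 (adjusted p = 0.034). Ndufa2 differed by -0.52 (adjusted p = 0.057), with its 3 arrays below all sham arrays. The summed intensity of proximal tubule genes was 82742 to 89343 at 4 h. Leaving out any 1 of the 6 arrays brought the 11 calls down to between 4 and 6. Sdha, Ndufs1 and Cox6a2 kept theirs in each of these fits, and a fit of only these groups gave 33 calls.

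Set directly against 4 h, the 24 h arrays had 35 genes lower and 1 higher, where 12.8% of all genes were lower and 14.9% higher. This comparison shares its arrays with the preceding ones. The median of the 80 was -0.31, against 0.00 for all genes, with lower calls in 16 of 35, 3 of 4, 4 of 8, 5 of 16 and 7 of 17 genes from complex I to V. Ndufs1 had the deepest difference, 2.63-fold lower (-1.40 ± 0.2, adjusted p = 1.9e-06), followed by Ndufs5 at -1.10 ± 0.27 (adjusted p = 0.0017). In complex II, Sdha differed by -0.93 ± 0.12 (adjusted p = 1.3e-07), Sdhd by -0.40 (adjusted p = 0.0022) and Sdhb by -0.31 (adjusted p = 0.0017), whereas Sdhc was at -0.05 (adjusted p = 0.83). The only rise was in Cox6b2, from 8.11, 8.53 and 8.27 to 8.99, 9.59 and 8.73 (0.80 ± 0.22, adjusted p = 0.0048). That call was lost without 24 h replicate 2 (adjusted p = 0.076), the array with the highest value. Quantile normalization gave 26 lower and 4 higher in place of 35 and 1.

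In the interstitial line, 42 of the 80 genes fell at 24 h and 1 rose, against 20% and 19.3% of all genes. The median was -0.31, against 0.05 for all genes. Falls were found in 19 of 35 genes of complex I, 4 of 4 of complex II, 6 of 8 of complex III, 7 of 16 of complex IV and 6 of 17 of complex V. The deepest was in Ndufa4l2, a paralog of Ndufa4 known to be induced by hypoxia and present in pericytes. Its values went from 9.5, 10.24 and 9.08 in sham to 8.52, 7.22 and 7.09, a 3.99-fold difference (-2.0 ± 0.23, adjusted p = 2.1e-08). The groups did not overlap, but IRI replicate 1 lay well above the other two. Ndufs1 went from 11.55, 11.28 and 11.69 to 10.19, 10.19 and 9.91 (-1.41 ± 0.2, adjusted p = 8.9e-07). Sdha went from 12.58, 12.44 and 12.62 to 11.55, 11.48 and 11.28 (-1.11 ± 0.12, adjusted p = 2.0e-09), or 2.16-fold lower. The groups of both genes were fully apart. The other subunits of complex II fell by smaller amounts: Sdhd by 0.59 ± 0.1, Sdhc by 0.35 ± 0.13 and Sdhb by 0.34 ± 0.08. Core subunits of the other complexes fell as well, with Uqcrc2 at -0.59 (adjusted p = 4.2e-06), Ndufv1 at -0.77 (adjusted p = 2.4e-05), Atp5a1 at -0.55 (adjusted p = 6.2e-04) and Atp5b at -0.23 (adjusted p = 0.0032). Among the isoforms, Cox7a1 fell by 1.32 ± 0.23, Cox6b2 by 0.84 ± 0.22 and Cox4i2, the hypoxia-responsive form of subunit 4, by 0.55 ± 0.14 (adjusted p = 1.9e-05, 0.0022 and 0.0013). Cox4i1 was at -0.02 (adjusted p = 0.92).

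The single rise, in Atp5l (subunit g of the ATP synthase), was 0.43 ± 0.17 (adjusted p = 0.049), and it lost its call in 5 of the 6 fits that left out 1 array. Without interstitial sham replicate 1, 26 genes were lower and 0 higher. In this line 13 of 14 proximal tubule genes fell, from a summed intensity of 74997 to 80158 to one of 36001 to 39765, and 7 of 9 distal nephron genes fell. All 7 neutrophil genes rose, from a sum of 494 to 578 to one of 2195 to 2392. Of 11 macrophage genes 7 fell and 2 rose (median -0.69), from a sum of 8079 to 9961 to one of 4441 to 7902, and of 9 endothelial genes 5 rose and 1 fell (median 0.48). The line's own markers changed too, with 4 of 11 interstitial genes lower and 0 higher, and sums of 20604 to 24487 in sham and 17548 to 22973 after IRI. The part of these changes in the subunits' falls was not tested.

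The endothelial line had fewer falls and several rises: 20 genes fell and 4 rose, against 21.7% and 21.5% of all genes, so the share that fell (25%) was near the background. The median was -0.09, against 0.07 for all genes, and 48 of the 80 lay below 0. Ndufa2 went from 11.28, 11.1 and 11.04 to 10.1, 9.78 and 9.85 (-1.23 ± 0.19, adjusted p = 2.6e-06). Complex II divided: Sdha fell, from 12.09, 12.36 and 12.36 to 11.41, 11.41 and 11.48 (-0.84 ± 0.12, adjusted p = 3.3e-07), and Sdhc fell by 0.45 ± 0.13 (adjusted p = 0.0042). Sdhb rose, from 11.01, 11.13 and 11.11 to 11.47, 11.23 and 11.26 (0.24 ± 0.08, adjusted p = 0.011), and Sdhd was at 0.03 (adjusted p = 0.83). The groups did not overlap for Sdha or Sdhb, but the call for Sdhb was lost in 2 of the 6 fits that left out 1 array. The highest rise was in Cox7a2l, a factor of respiratory supercomplex assembly, from 8.89, 8.78 and 9.08 to 9.93, 9.69 and 9.73 (0.86 ± 0.21, adjusted p = 8.3e-04). Its next probe set, at 0.99, also rose. Uqcrfs1 rose, from 9.35, 9.58 and 9.59 to 10.11, 9.94 and 9.93 (0.49 ± 0.15, adjusted p = 0.0069), as did Cox4i1, from 10.95, 11.03 and 10.97 to 11.54, 11.36 and 11.43 (0.46 ± 0.14, adjusted p = 0.009). No IRI array of these genes lay within the range of sham. All 7 neutrophil genes rose in this line, from a sum of 1458 to 3037 to one of 10826 to 12075, and 4 of 14 proximal tubule genes fell. Of 11 macrophage genes 6 fell and 1 rose (median -0.79), from a sum of 42523 to 49304 to one of 24969 to 35730, and 4 of 6 lymphocyte genes fell, from 1026 to 1161 to 601 to 645. The part of these markers in the result was not tested. A fit of only these groups called 42 genes in place of 24.

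In the myeloid line 26 genes fell and 0 rose, against 14.8% and 13.1% of all genes, with a median of -0.25 against -0.02. At an unadjusted p under 0.05, 33 were lower and 1 higher, which was Sdhd at 0.24 (adjusted p = 0.079). Cox7a1 had the deepest fall, from 10.08, 10.08 and 10.41 to 7.84, 8.09 and 8.04, which was 4.6-fold lower (-2.20 ± 0.23, adjusted p = 3.0e-09). Ndufa2 followed, from 11.56, 11.54 and 11.59 to 9.81, 10.05 and 9.92, or 3.11-fold lower (-1.64 ± 0.19, adjusted p = 2.8e-08). In both genes the groups were far apart and the arrays within a group close together. In complex II, Sdha fell, from 11.8, 12.22 and 11.83 to 11.41, 11.48 and 11.4 (-0.52 ± 0.12, adjusted p = 6.2e-04), whereas Sdhb was at 0.02 (adjusted p = 0.89) and Sdhc at -0.26 (adjusted p = 0.15). Falls were found in 14 of 35, 1 of 4, 2 of 8, 5 of 16 and 4 of 17 genes of complexes I to V. Ndufs1, at -0.39 (adjusted p = 0.16), was not among them. Markers of other cells moved in these arrays: all 7 neutrophil genes rose, from a sum of 2590 to 3518 to one of 17634 to 23250, and 12 of 14 proximal tubule genes fell, from 24974 to 45657 to 14974 to 15551. Of 9 distal nephron genes 8 fell, as did 7 of 9 collecting duct genes, and 4 of 9 endothelial genes rose. The myeloid IRI mice were also older than the sham mice, so age and injury cannot be told apart here, and the part of the markers was not tested. A fit of only these groups called 44 genes.

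**Figure D2:**
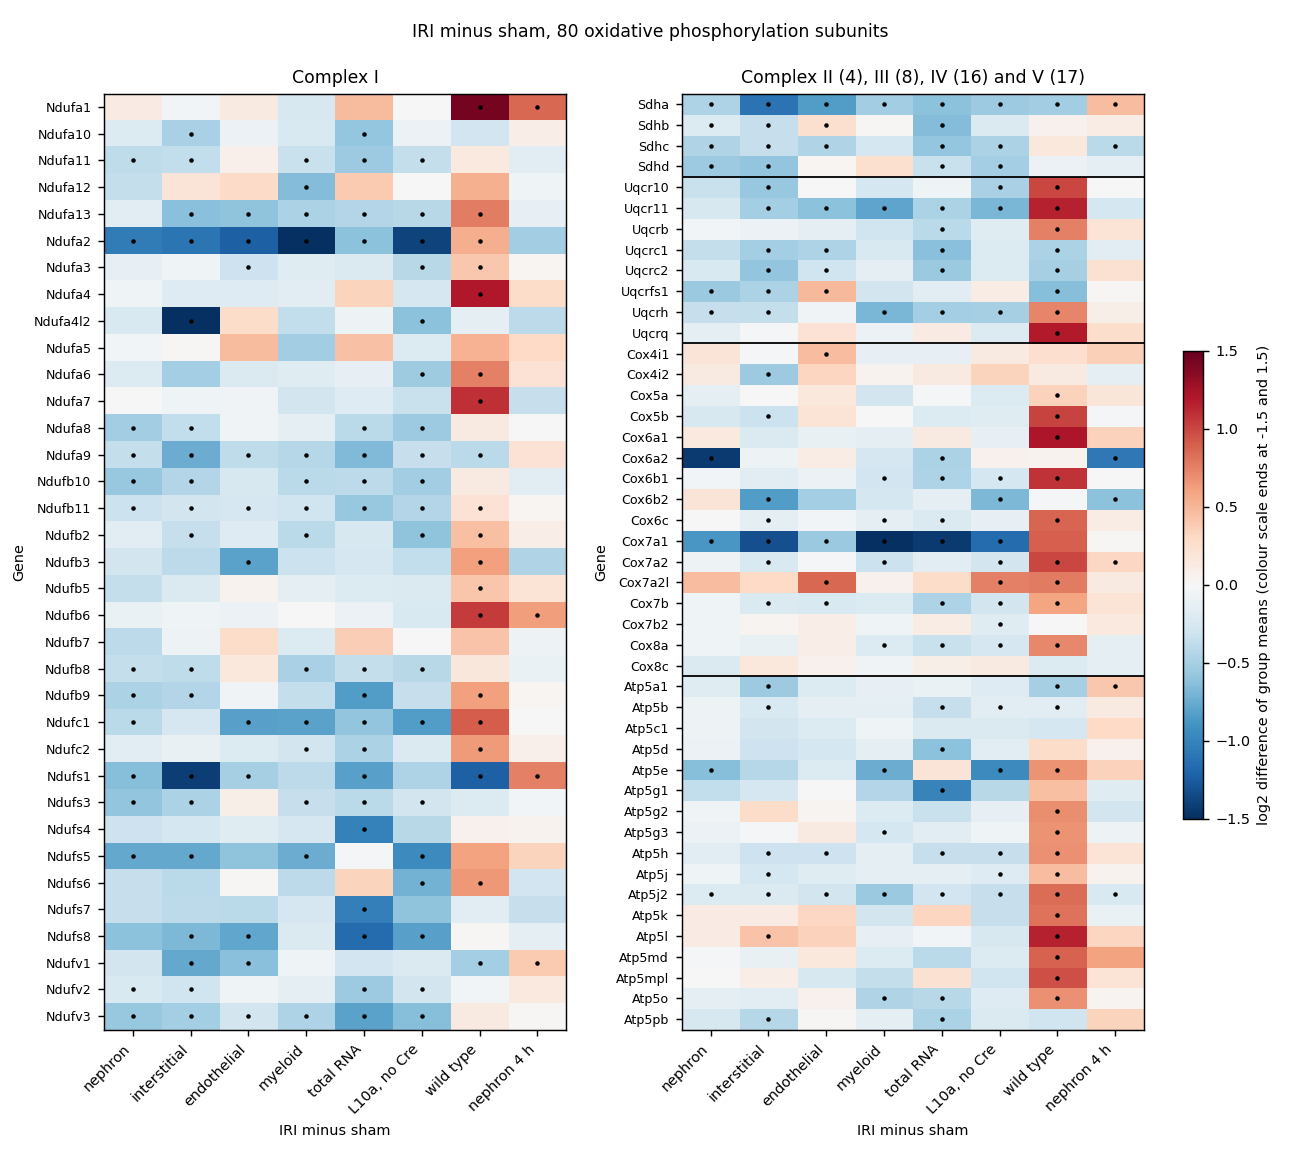
Log2 difference (IRI minus sham) of the 80 genes, ordered by complex, in 8 comparisons: the nephron, interstitial, endothelial and myeloid lines, total RNA, L10a without Cre and wild-type background at 24 h, and the nephron line at 4 h. Black dots mark adjusted p below 0.05 and colours end at -1.5 and 1.5. Blue dominates complexes I and II in the nephron and interstitial lines, and the wild-type column is mostly red.

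The IRI comparisons of the 4 lines rest on separate arrays, so their differences can be set against each other. Their calls are not independent, because the variance of each gene was pooled over the 45 arrays of 1 fit. In all 4 lines, 7 genes fell: Ndufa2, Ndufa9, Ndufb11, Ndufv3, Sdha, Cox7a1 and Atp5j2, which were 29.2% of the nephron list, 16.7% of the interstitial, 35% of the endothelial and 26.9% of the myeloid list. Over all genes tested, 700 were lower in all 4 lines, or 24.7%, 18.1%, 16.8% and 24.5% of those lists. Ndufa9 and Ndufb11 were named after their values were seen. Another 27 genes were called lower in 0 lines, 19 in 1, 16 in 2 and 11 in 3, and 43 of the 80 had a difference below 0 in all 4. Sdha, with differences of -0.46, -1.11, -0.84 and -0.52 in the nephron, interstitial, endothelial and myeloid lines, was the only complex II gene among the 7. Its mean also went from 12.28 to 11.74 in L10a mice without Cre and from 12.98 to 12.45 in untagged mice. Without Cre, Ndufa2 went from 11.98 to 10.59 and Cox7a1 from 11.69 to 10.52. In untagged mice these 2 went up, from 8.59 to 9.13 and from 8.04 to 8.94. The part of the backgrounds in the shared falls was not tested. Ndufa9, a complex I subunit next to the ubiquinone site, differed by -0.36, -0.75, -0.38 and -0.43, and Ndufb11, a membrane-arm subunit, by -0.32, -0.27, -0.25 and -0.30. Ndufv3, an accessory subunit of the NADH-oxidizing tip, differed by -0.57, -0.51, -0.27 and -0.46. The nephron list overlapped the interstitial one in 21 genes, which were 87.5% of the former and 50% of the latter. It shared 10 genes with the endothelial list (41.7% and 50%) and 15 with the myeloid list (62.5% and 57.7%). Over all genes tested the same overlaps were 1897 genes for nephron and interstitial (66.9% and 49.2%), 1213 for nephron and endothelial (42.8% and 29%) and 1162 for nephron and myeloid (41% and 40.7%). The call for Cox7a1 in the endothelial line (adjusted p = 0.048) was lost in all 6 fits that left out 1 array, and that for Atp5j2 in the nephron line in 5 of 6.

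Whether a line's response differed from that of the others was tested directly, as its IRI minus sham difference less the mean difference of the other lines. These tests share arrays with one another and with those above. The interstitial line had 8 genes with a more negative response and 0 with a more positive one, against 8.14% and 7.78% of all genes (16 and 3 at an unadjusted p under 0.05). Ndufa4l2 differed by -1.89 ± 0.27 (adjusted p = 5.2e-06) and Ndufs1 by -0.90 ± 0.23 (adjusted p = 0.0071). Cox4i2 (-0.72), Sdha (-0.50), Sdhd (-0.50) and Sdhb (-0.36) were also called, and Sdhc was not. In the endothelial line 0 genes were more negative and 18 more positive, against 15% and 14% of all genes (1 and 25 at an unadjusted p under 0.05). Ndufa4l2 differed there by 1.13 ± 0.27 (adjusted p = 0.0017), Uqcrfs1 by 0.93 ± 0.17 (adjusted p = 8.4e-05), Sdhb by 0.42 (adjusted p = 5.1e-04) and Sdhd by 0.33 (adjusted p = 0.029). The value for Ndufa4l2 rests in part on its fall in the interstitial line, which enters the mean of the others. The endothelial count was 11 without IRI replicate 1, 10 without sham replicate 2 and 30 in a fit of only these groups.

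In the nephron line 5 responses were more negative and 4 more positive, against 11.4% and 11.9% of all genes. Cox6a2 (-1.35 ± 0.21, adjusted p = 9.8e-06), Uqcrfs1 (-0.48) and Sdhd (-0.44, adjusted p = 0.0052) were more negative, and Cox6b2 (0.73), Ndufa13 (0.41) and Sdha (0.36, adjusted p = 0.047) more positive. In the myeloid line 6 were more negative and 2 more positive, against 9.14% and 9.34%. Cox7a1 (-1.28 ± 0.27, adjusted p = 6.7e-04) and Ndufa12 (-0.70) were more negative, and Sdhd (0.61 ± 0.12, adjusted p = 2.4e-04) and Ndufv1 (0.49) more positive. The nephron count of 9 was 4 without sham replicate 2 or 3 and 5 without sham replicate 1, IRI replicate 1 or IRI replicate 3. The myeloid count of 8 was 4 without IRI replicate 2 or sham replicate 3, 5 without IRI replicate 1 or sham replicate 1, and 18 in a fit of only these groups, which for the interstitial count of 8 also gave 18. With quantile normalization the splits were 3 and 4 (nephron), 4 and 2 (interstitial) and 11 and 1 (myeloid).

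**Figure D3:**
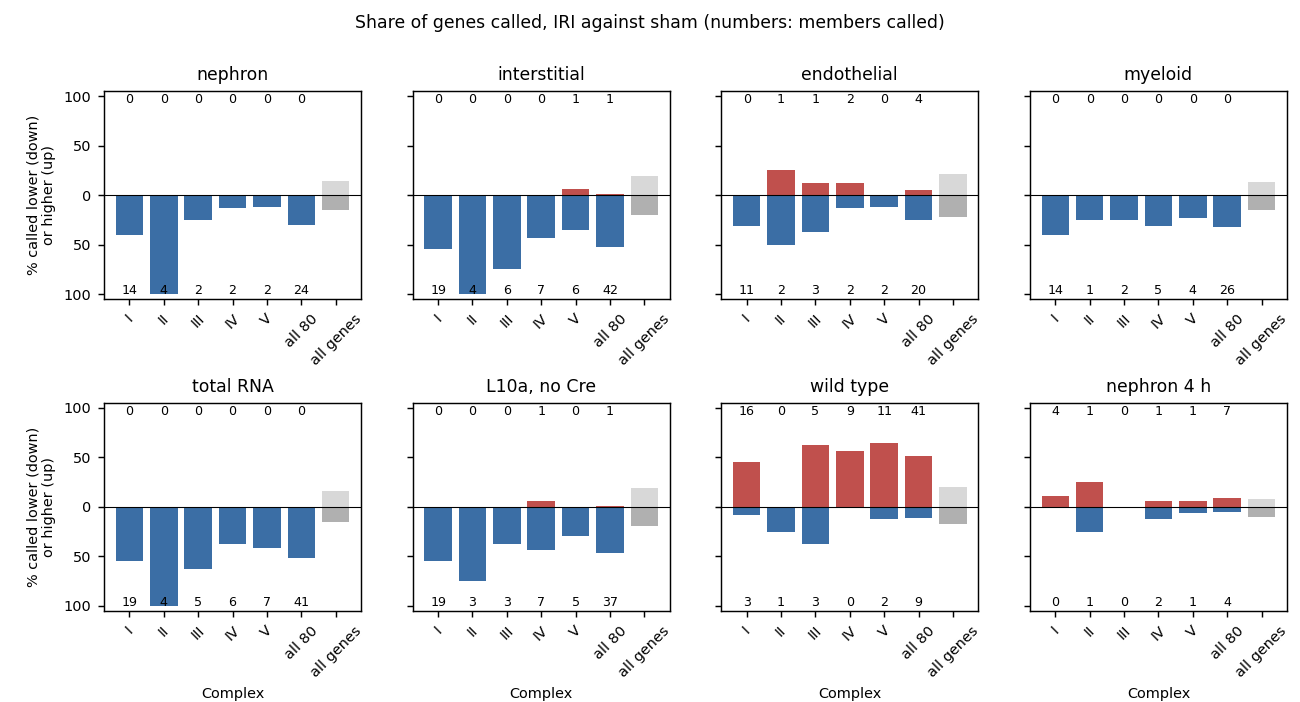
Percent of genes called lower (blue, downward) and higher (red, upward) after IRI in each complex, in all 80 genes and in all genes tested (grey), with the counts printed, for the same 8 comparisons. Complex II reaches 4 of 4 lower in the nephron and interstitial lines and in total RNA, and complexes IV and V have smaller shares lower than complexes I and II in the nephron line.

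Total kidney RNA, not enriched for any cell type, had 41 genes lower and 0 higher after IRI, against 15.3% and 15.6% of all genes, with a median of -0.33 against 0.05. At an unadjusted p under 0.05, 45 were lower and 0 higher. Falls were found in 19 of 35, 4 of 4, 5 of 8, 6 of 16 and 7 of 17 genes of complexes I to V. Sdhb went from 10.82, 10.85 and 10.89 to 10.19, 10.18 and 10.24 (-0.65 ± 0.08, adjusted p = 5.3e-08), with groups far apart. Sdha, from 11.5, 11.35 and 11.46 to 10.92, 10.58 and 10.98, differed by -0.61 (adjusted p = 1.0e-04), Sdhc by -0.58 (adjusted p = 6.9e-04) and Sdhd by -0.33 (adjusted p = 0.012). Cox7a1 had the deepest fall, from 8.91, 8.57 and 9.12 to 7.71, 7.02 and 7.54 (-1.44 ± 0.23, adjusted p = 1.1e-05). Ndufs8, a core iron-sulfur subunit, went from 11.21, 11.21 and 11.16 to 10.93, 10.44 and 8.74 (-1.16 ± 0.24, adjusted p = 3.8e-04). Its mean is drawn down by replicate 3, and the same array gave Ndufa1 at 10.08 where the other IRI arrays had 7.96 and 7.59. Without replicate 3, 54 genes were lower and 0 higher. Fitted alone, with the spread of these 6 arrays in place of the pooled one, the groups gave 4 calls, and quantile normalization gave 14. Proximal tubule genes fell here in 10 of 14 cases, from a sum of 63486 to 66077 to one of 32835 to 45850.

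The nephron response was more negative than the total RNA response in 1 gene and less negative in 2, against 2% and 1.31% of all genes: Cox6a2 at -0.95 (adjusted p = 0.034), and Sdhb at 0.44 (adjusted p = 0.02) and Cox6b1 at 0.42 (adjusted p = 0.017). This count of 3 rested on single arrays, being 16, 17 and 7 without total RNA IRI replicates 1, 2 and 3 and 0 without sham replicate 3. It was also 0 with quantile normalization and in a fit of only these groups.

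In the pull-down of L10a mice without Cre, 37 genes were lower after IRI and 1 higher, against 19.4% and 19% of all genes, with a median of -0.27 against 0.08. Ndufa2 went from 11.92 and 12.03 in sham to 10.52, 10.54, 10.66 and 10.63 (-1.39 ± 0.19, adjusted p = 8.4e-08). Cox7a1 went from 11.47 and 11.9 to 10.73, 10.88, 10.25 and 10.23 (-1.16 ± 0.37, adjusted p = 0.011). Of complex II, Sdha (-0.55, adjusted p = 7.5e-04), Sdhd (-0.51, adjusted p = 7.3e-04) and Sdhc (-0.47, adjusted p = 0.0039) fell, and Sdhb differed by -0.22 and was not called. The rise was in Cox7a2l, from 9.35 and 9.22 to 10.12, 10.12, 9.93 and 10.01 (0.76 ± 0.2, adjusted p = 0.0024). Without sham replicate 2, which leaves 1 sham array assumed to vary like the other groups, 18 genes were lower and 2 higher. The sham arrays of this background also had the highest sum of collecting duct genes of the 17 TRAP groups, 26890 to 27069, which was 12124 to 15372 after IRI; its part in the result was not tested.

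The untagged wild-type background went the other way: 9 genes were lower after IRI and 41 higher, against 17.7% and 20.2% of all genes, with a median of 0.45 against 0.04. Cox6a1 went from 10.1 and 10.04 to 11.5, 11.33, 11.18 and 11.12 (1.21 ± 0.16, adjusted p = 4.8e-08). Ndufa1 went from 7.26 and 6.96 to 8.79, 8.64, 8.41 and 8.35 (1.44 ± 0.3, adjusted p = 1.4e-04). Every IRI array of these genes was above both sham arrays. The lower genes were mostly core subunits, with Ndufs1 from 12.5 and 12.5 to 11.51, 11.54, 10.96 and 11.06 (-1.23 ± 0.21, adjusted p = 7.5e-06). Uqcrfs1 differed by -0.64 (adjusted p = 7.7e-04) and Sdha by -0.52 (adjusted p = 0.0011). Sdhb, Sdhc and Sdhd, at 0.06, 0.16 and -0.09, were not called. The complex medians were 0.42, -0.02, 0.74, 0.66 and 0.67 from I to V. Cox7a1, at 8.16 and 7.92 in sham and 10.66, 8.86, 8.29 and 7.94 after IRI, was not called (0.90, adjusted p = 0.052), and the sum of adipocyte markers in these IRI arrays ran from 3298 to 19846.

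The pull-downs of the tagged lines were then set against the wild-type background of the same treatment, where RNA is carried over without a tag. All TRAP arrays, untagged ones included, had median intensities between 105.8 and 128.4. These differences therefore compare the make-up of 2 RNA pools, and do not show how much RNA exceeded the carry-over. In sham arrays, 65 of the 80 genes were higher and 6 lower in the nephron line (28.8% and 19.5% of all genes), with a median of 1.57. The interstitial line had 59 higher and 7 lower (22.2% and 19.8%), the endothelial line 50 higher and 13 lower (29.5% and 26.4%), and the myeloid line 56 higher and 13 lower (28.3% and 24.8%). Their medians were 1.11, 0.89 and 1.04. In the nephron line Uqcr11, a small subunit of complex III, read 12.51, 12.26 and 12.39 against 9.06 and 8.97 (3.37 ± 0.13), and Ndufa2 was 3.31 ± 0.2 higher. Sdhc, Sdhd and Sdhb were 1.42, 0.95 and 0.86 higher. The 6 lower genes were all core or catalytic subunits: Ndufs1 (-1.62), Sdha (-0.88), Ndufv1 (-0.65), Atp5a1 (-0.55), Uqcrc2 (-0.45) and Atp5b (-0.28). For Sdha the untagged sham arrays read 12.99 and 12.96, above every sham array of the 4 lines. Ndufs1 was the deepest in the other lines too, at -0.99 in the interstitial, -1.61 in the endothelial and -2.21 in the myeloid line. The next lower were Uqcrfs1 in the interstitial (-0.60) and endothelial (-1.18) lines and Ndufv1 in the myeloid line (-1.47). The highest were Uqcr11 (3.01) and Ndufa4l2 (2.90) in the interstitial, Ndufa2 (2.55) and Ndufb6 (2.47) in the endothelial, and Uqcr11 (2.99) and Ndufa2 (2.98) in the myeloid line. These comparisons share the wild-type arrays.

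After IRI the distance to the wild-type background was smaller. The nephron line had 60 genes higher and 5 lower (25.3% and 18.7% of all genes), the interstitial 40 and 11 (17.8% and 16.3%), the endothelial 41 and 14 (26.5% and 23%), and the myeloid 41 and 15 (27.8% and 30.4%). The medians were 0.79, 0.31, 0.27 and 0.29. The wild-type values themselves rose in many of these genes: for Uqcr11 they went from 9.06 and 8.97 in sham to 10.43, 10.19, 9.96 and 10.1 after IRI. Ndufs1 and Sdha remained below the background in the nephron line, at -1.03 and -0.82, and in the interstitial line, at -1.17 and -1.01. In the endothelial line Ndufv1 (-1.28) and Ndufa9 (-1.14) were lowest, and in the myeloid line Ndufs1 (-1.37) and Ndufa9 (-1.3). The highest were Atp5k (2.09) and Ndufb3 (2.05) in the nephron, Uqcr11 (1.34) and Atp5k (1.33) in the interstitial, Ndufb7 (1.67) and Ndufb6 (1.33) in the endothelial, and Ndufb7 (1.42) and Atp5e (1.14) in the myeloid line. The IRI minus sham values of Sdha and Ndufs1 given above were not corrected for this background, and its part in them was not tested. Quantile normalization changed the myeloid split to 29 higher and 17 lower.

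**Figure D4:**
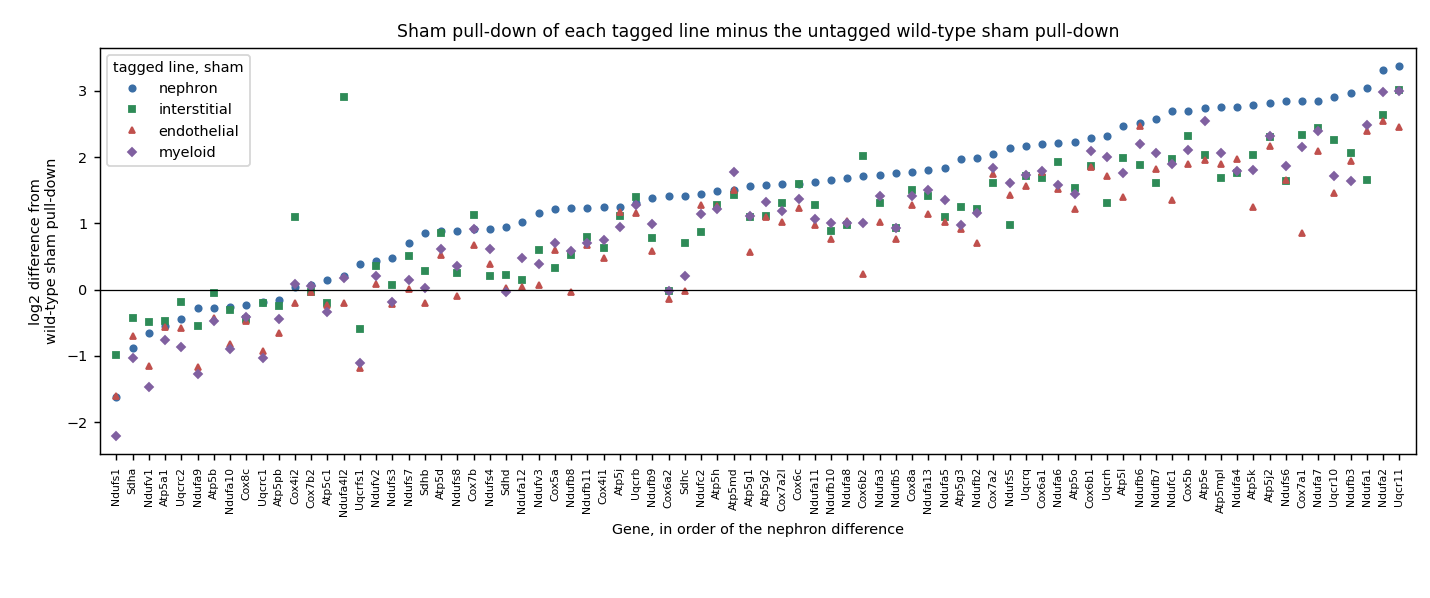
Log2 difference between the sham arrays of each tagged line and the untagged wild-type sham arrays for the 80 genes, ordered by the nephron-line difference. Most genes lie above 0, and Ndufs1 and Sdha lie below 0 at the low end of the nephron series.

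Without surgery, the lines differed in their overall level of these genes. Against the mean of the other lines, 63 of the 80 genes were higher and 2 lower in the nephron line (29.2% and 22.1% of all genes), with a median of 0.47 against 0.06 and higher calls in 28 of 35, 3 of 4, 7 of 8, 12 of 16 and 13 of 17 genes. In the interstitial line 28 were higher and 0 lower (13% and 19.6%). The endothelial line had 0 higher and 55 lower (20.9% and 20.3%), and the myeloid line 0 higher and 37 lower (16.9% and 20.9%). Their medians were 0.19, -0.38 and -0.29. The counts of 0 were 1 lower, 0 higher and 0 higher at an unadjusted p under 0.05 in the interstitial, endothelial and myeloid lines. These comparisons share all their arrays, so a high line lowers the others. Sdhc read 12.9, 12.87 and 12.76 in the nephron line, 12.5, 12.14 and 12.33 in the interstitial, 11.26, 11.3 and 11.4 in the endothelial and 11.47, 11.48 and 11.5 in the myeloid line. It was highest in nephron arrays (1.14 ± 0.1, adjusted p = 2.8e-11), and the arrays of no line overlapped those of another. Sdhd and Sdhb were 0.78 and 0.75 higher in the nephron line. Sdha was at similar levels in all lines, with means of 12.03, 12.03, 12.25 and 12.24 in the nephron, interstitial, endothelial and myeloid lines, and was called in none of these comparisons. In the endothelial line Sdhc, Sdhb and Sdhd were lower by 0.90, 0.67 and 0.51, and in the myeloid line by 0.68, 0.45 and 0.46. In the interstitial line Sdhc and Sdhb were higher by 0.44 and 0.37.

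Among the paired isoforms, several differed between the lines without surgery. Ndufa4l2 was highest in the interstitial line, at 9.68, 10.14 and 9.51 without surgery, where the other lines lay between 6.37 and 7.06 (3.04 ± 0.19, adjusted p = 4.2e-15). Cox4i2 was also highest in the interstitial line, at 8.78, 9.17 and 8.81 against 7.39 to 7.73 elsewhere (1.34 ± 0.11, adjusted p = 4.5e-12). Cox6b2 was 1.68 ± 0.18 higher in the interstitial and 1.3 ± 0.18 lower in the endothelial line. Cox7a1 was high in the nephron (11.16, 11.07 and 11.03) and interstitial lines (10.89, 11.6 and 11.26), lower in the myeloid line (9.49, 9.94 and 9.96) and lowest in the endothelial line (8.58, 8.8 and 8.38). The nephron and interstitial values overlapped, and the other lines were each apart. Cox7a1 is also expressed in adipocytes, whose 8 measured markers were all higher in the interstitial line without surgery, with sums of 19160 to 24555. Their part in the value of Cox7a1 there was not tested. Cox6a2 was highest in the sham arrays of the nephron line, with a mean of 9.32 ± 0.28 (SD, n = 3), while the means of the other TRAP groups were between 7.64 and 8.40. Cox7b2 and Cox8c, known as testis forms, stayed at means of 5.10 to 5.38 and 6.12 to 6.65 on the TRAP arrays, near the dim end of the scale. The c-ring genes Atp5g1, Atp5g2 and Atp5g3 differed by -0.37, -0.05 and -0.09 after IRI in the nephron line, none of them called. The SD of Atp5g1 was 0.05 and 0.03 in nephron IRI and sham but 0.99 in total RNA IRI, which enters the pooled variance. Ndufa4 differed by -0.06 there (adjusted p = 0.91).

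**Figure D5:**
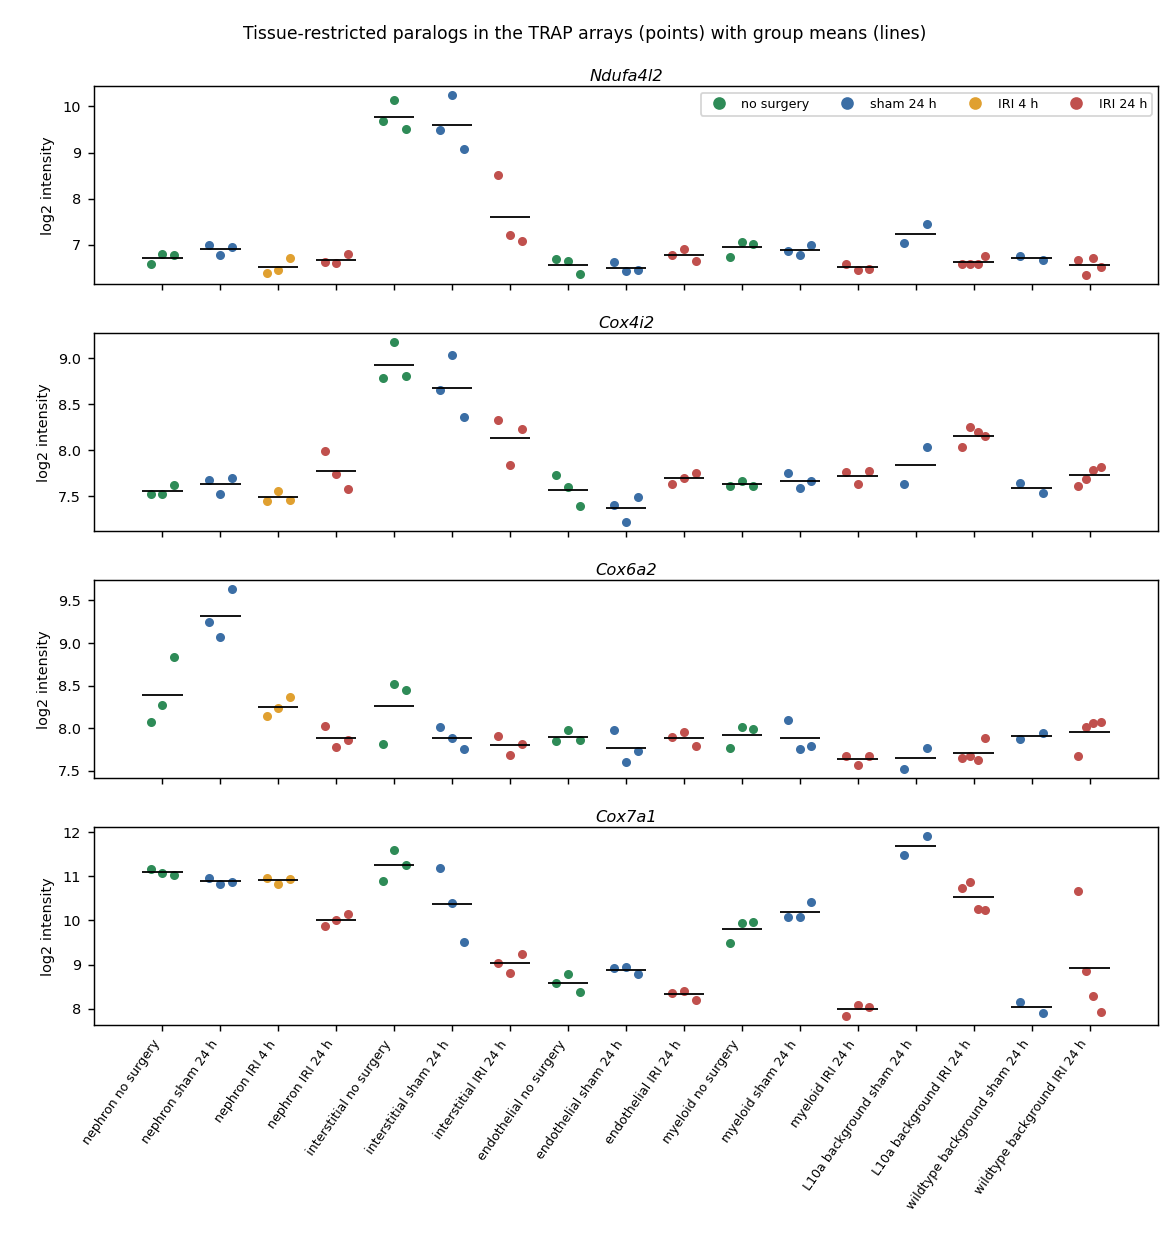
Log2 intensity of Ndufa4l2, Cox4i2, Cox6a2 and Cox7a1 on each array (points) of the 17 TRAP groups. Ndufa4l2 and Cox4i2 are highest in the interstitial line and lower there after IRI, Cox6a2 is highest in nephron sham, and Cox7a1 falls after IRI in each tagged line.

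Sham surgery alone changed few of these genes outside the interstitial line. Against no surgery, the nephron line had 0 lower and 1 higher (0.904% and 0.712% of all genes; 5 and 3 at an unadjusted p under 0.05). The gene called was Cox6a2, from 8.07, 8.27 and 8.84 to 9.25, 9.07 and 9.63 (0.92 ± 0.18, adjusted p = 0.0039). After IRI at 24 h Cox6a2 lay below the no-surgery arrays as well. In complex II, nephron means without surgery and in sham were 12.03 and 12.10 for Sdha, 12.13 and 12.14 for Sdhb, 12.84 and 12.76 for Sdhc, and 11.69 and 11.72 for Sdhd, none called. The no-surgery mice of this line were younger than the sham mice, so age and surgery cannot be told apart. The call for Cox6a2 was lost without no-surgery replicate 1 or sham replicate 3. The endothelial line had 0 genes called in either direction (0.483% and 0.255% of all genes), and 0 at an unadjusted p under 0.05. The myeloid line had 1 lower and 0 higher (1.27% and 0.411%; 5 and 10 at an unadjusted p under 0.05). The gene called was Ndufs1, from 11.13, 10.74 and 11.27 to 9.82, 10.84 and 10.19 (-0.76 ± 0.2, adjusted p = 0.045). Its groups overlapped, and the count was 0 without no-surgery replicate 1 or 3 or sham replicate 1 or 3, 3 without no-surgery replicate 2 and 4 without sham replicate 2.

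Sham surgery in the interstitial line gave 14 genes lower and 4 higher than no surgery (4.91% and 5.4% of all genes), with a median of -0.24 against -0.04. Cox7a1 went from 10.89, 11.6 and 11.26 to 11.19, 10.39 and 9.52 (-0.88 ± 0.23, adjusted p = 0.011), with overlap, and Ndufc1 differed by -0.54 (adjusted p = 0.013). Ndufs1 was higher, from 10.37, 10.59 and 11.13 to 11.55, 11.28 and 11.69 (0.81 ± 0.2, adjusted p = 0.0087), as was Sdha by 0.51 (adjusted p = 0.0032), while Sdhb was lower by 0.29 (adjusted p = 0.013). The fall of Sdha and Ndufs1 from sham to IRI in this line therefore began from sham levels above those without surgery. Adipocyte markers moved as well: 4 of 8 were lower in sham, and their sum went from 19160 to 24555 down to 4166 to 17002. The sum of proximal tubule genes was 55133 to 71553 without surgery and 74997 to 80158 in sham. The part of these in the result was not tested. The count of 18 was 7, 10, 8 and 3 without no-surgery replicate 1, no-surgery replicate 2, sham replicate 2 and sham replicate 3, and 0 in a fit of only these groups.

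Other genes of the pathway were taken from lists made with earlier results of these data known, and are given here for the nephron line at 24 h, where 14.7% of all genes fell and 13.9% rose. Of 43 assembly factors, which build the complexes, 23 fell (53.5%) and 1 rose, with a median of -0.42 against -0.04 for all genes. Among them were Acad9 (-1.23 ± 0.18, adjusted p = 1.3e-06), a factor of complex I assembly, Lyrm7 (-1.11 ± 0.14, adjusted p = 1.3e-07), which brings the Rieske protein to complex III, and Tmem70 (-0.63), a factor of ATP synthase assembly. Of 16 genes of the tricarboxylic acid cycle and pyruvate dehydrogenase 5 fell (31.2%) and 0 rose, with Idh3a at -0.54 and Sucla2 at -0.57. Of 11 genes for cytochrome c and for exchange of adenine nucleotides and phosphate 2 fell (18.2%, near the share of all genes) and 1 rose: Cyc1 (-0.32), the cytochrome c1 of complex III, Slc25a5 (-0.46), an ADP/ATP carrier, and Vdac3 (0.24). Of 77 mitochondrial ribosome genes 16 fell (20.8%) and 4 rose (5.19%). The 2 measured genes of mitochondrial DNA, COX2 and ND3, went the other way: 0 fell and 1 rose, with a median of 0.79. Both were lower in the nephron line than in the wild-type background, in sham (median -1.75) and after IRI (median -1.53). After IRI both also rose in L10a mice without Cre (median 1.06), and 0 were called in the wild-type background (median 0.56). The part of RNA carried over without a tag in their rise was not tested. Of 17 regulators 7 fell (41.2%) and 5 rose (29.4%). The falls took in Ppargc1a (-1.21 ± 0.46, adjusted p = 0.046), the coactivator of mitochondrial biogenesis, and Esrra (-1.03 ± 0.13, adjusted p = 2.6e-07), Esrrb (-1.22) and Esrrg (-0.82), the estrogen-related receptors. Gabpa (0.37), an ETS factor of respiratory chain promoters, and Myc (2.70) rose.

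At 4 h in the nephron line, where 10.6% of all genes were lower and 7.52% higher, 10 assembly factors were lower (23.3%) and 4 higher (9.3%). Of the genes of the tricarboxylic acid cycle 0 were lower and 3 higher (18.8%), and 11 mitochondrial ribosome genes were lower (14.3%) and 0 higher. Of the 2 genes of mitochondrial DNA, 2 were higher (median 1.24). In the interstitial line at 24 h, against 20% and 19.3% of all genes, 20 assembly factors fell (46.5%) and 2 rose, and 12 of the 16 genes of the tricarboxylic acid cycle fell (75%) and 0 rose, with a median of -0.62. In the endothelial line 25 assembly factors fell (58.1%) and 4 rose. There 18 mitochondrial ribosome genes were lower and 18 higher, 23.4% each, which is near the 21.7% and 21.5% of all genes. In the myeloid line 15 assembly factors fell (34.9%) and 4 rose, against 14.8% and 13.1% of all genes. Ppargc1a differed by -1.64, -1.13 and -1.65 in the interstitial, endothelial and myeloid lines, and Esrra by -0.48, -0.46 and -0.37, all called. Of the 2 genes of mitochondrial DNA, 1, 2 and 0 rose in these lines and 0 fell, with medians of 0.77, 1.07 and 0.57. In total RNA 0 were called (median -0.16). In the wild-type background, against 17.7% and 20.2% of all genes, 12 genes of the tricarboxylic acid cycle were lower (75%) and 0 higher (median -0.60), while 6 mitochondrial ribosome genes were lower (7.79%) and 32 higher (41.6%). In sham arrays, 9 of the 16 genes of the tricarboxylic acid cycle were lower and 0 higher in the nephron line than in the wild-type background, and 70 of 77 mitochondrial ribosome genes were higher and 2 lower, where 19.5% of all genes were lower and 28.8% higher.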

How the data were processed

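RNA was hybridised to Affymetrix mouse gene arrays (1 array per sample). The authors deposited linear intensities made with Affymetrix Expression Console 1.3.1 and RMA, per the submitters' processing notes; the TRAP and total RNA arrays were normalized separately. The plan had assumed log2 values, so the deposited intensities were put on a log2 scale first, and every other step kept. Of 35556 probe sets, 21789 had 1 symbol, 1621 several and 12146 none in the platform annotation. Probe sets of several symbols, among them those of Cox7c, Ndufb4 and Ndufs5 with copies, were left out, and which copy of a gene a probe set reads was not checked.

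Genes above a log2 value of 5 in at least 3 arrays were tested with limma 3.58.1 (lmFit and eBayes, R 4.3.3), with Benjamini-Hochberg adjustment over all genes. A gene is called at an adjusted p of at most 0.05. A fit of 45 arrays (19244 genes, 30 residual degrees of freedom) gave the comparisons of lines and total RNA, and a fit of 57 arrays (19302 genes, 38) those with either background. The number of arrays limits the precision. Python 3.11.15 with pandas 2.3.3, numpy 2.4.6 and matplotlib 3.10.9 made the other values, and the fits were tested on simulated data.

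The genes and the lists were chosen with earlier results of these data known. Named are the 3 deepest falls and rises per complex in the nephron line at 24 h, the 2 deepest elsewhere, every complex II gene, and a fixed panel of isoforms and core subunits. Replicate numbers did not pair the samples: in no comparison did every same-numbered pair of arrays correlate above 0.1. Alternatives were quantile normalization, other sets of arrays, other filters, the mean of probe sets, a trended robust variance, leaving out each array, the replicate block, leaving out Ndufa4l2, and the next probe set, which was added after the values were seen.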

Additional observations from a re-analysis of the deposited data

Results flagged for a closer look

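Some genes were called in a test of the difference between responses, with the tests sharing arrays. Of the 80, 10% were more negative and 0% more positive in the interstitial line, and 0% and 22.5% in the endothelial line. The shares were 7.5% and 2.5% in the myeloid line and 6.25% and 5% in the nephron line. Apart from the endothelial 22.5%, these were near or below the shares of all genes given here. In the interstitial line 8 genes were called (8.14% of all genes were more negative and 7.78% more positive), led by Ndufa4l2 (-1.89) and Ndufs1 (-0.90), and in the endothelial line 18 (15% and 14%), led by Ndufa4l2 (1.13) and Uqcrfs1 (0.93). In the myeloid line 8 were called (9.14% and 9.34%), with Cox7a1 (-1.28) and Ndufa12 (-0.70) more negative and Sdhd (0.61) and Ndufv1 (0.49) more positive. In the nephron line 9 were called (11.4% and 11.9%), with Cox6a2 (-1.35) and Uqcrfs1 (-0.48) more negative and Cox6b2 (0.73) and Ndufa13 (0.41) more positive. Between the nephron line and total RNA 3 were called (2% and 1.31%): Cox6a2 (-0.95), Sdhb (0.44) and Cox6b1 (0.42). That count was 0 with quantile normalization, in a fit of only these groups, with the replicate block and without total RNA sham replicate 3.

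Single arrays lay far from the others of their group, with a gap that took up most of the group's range (Dixon's test), in 6 of 68 checks. Each check took 1 gene in the L10a or the wild-type background IRI group, of 4 arrays each. Chance gives about 1 in 20 per check, but the checks share these arrays and are not independent. In the IRI arrays of L10a mice without Cre these were Atp5a1 (12.59) and Sdhb (11.48) on replicate 1, and Cox6a2 (7.89) and Ndufa4l2 (6.76) on replicate 4. In the wild-type IRI arrays they were Cox6a2 on replicate 1 (7.67) and Ndufa4 on replicate 3 (10.03). The arrays of nephron, interstitial, endothelial and myeloid groups, with 3 per group, were not checked in this way.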

How the results depend on the processing

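Of 572 recomputed counts of called genes 503 stayed within 1.5 times the value in the report and 69 did not. Of 7880 values of named genes 6886 kept their status as called or not, 311 gained a call and 683 lost one. Not every sign was kept: in the endothelial line Atp5g1 was at 0 with the probe set used and at -0.05 with the next. Fitting only the groups compared gave 39 (nephron at 24 h), 42 (endothelial), 44 (myeloid), 4 (total RNA), 33 (nephron at 4 h) and 55 (nephron 24 h against 4 h). For sham against no surgery it gave 5 (nephron), 0 (interstitial) and 0 (myeloid), and for the differences between responses 18 (interstitial), 30 (endothelial), 18 (myeloid) and 0 (nephron less total RNA). Quantile normalization gave 14 for total RNA, 2 (1 lower and 1 higher) for nephron sham against no surgery and 0 for nephron less total RNA. With all 57 arrays sham against no surgery gave 2 in the nephron and 2 in the myeloid line. The nephron count was also 2 with no filter, with the mean of probe sets and with the next probe set. The cause of these moves was not tested.

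Replicate numbers did not pair the arrays, so the replicate block is a check only: it gave 0 for total RNA, 31 for wild-type background IRI against sham (1 lower, 30 higher), 19 at 4 h, and 5, 1 and 0 for sham against no surgery in the nephron, interstitial and myeloid lines. For the differences between responses the block gave 19 (interstitial), 30 (endothelial), 18 (myeloid) and 0 (nephron less total RNA), and against wild-type IRI 33 in the interstitial and 36 in the myeloid line.

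Leaving out each array in turn gave 15 to 21 (nephron at 24 h), 26 to 45 (interstitial), 17 to 22 (endothelial), 21 to 25 (myeloid), 38 to 54 (total RNA), 20 to 37 (L10a without Cre), 39 to 52 (wild type), 4 to 6 (4 h) and 29 to 33 (24 h against 4 h). For sham against no surgery the ranges were 0 to 1 (nephron), 3 to 25 (interstitial) and 0 to 4 (myeloid), and for the differences 4 to 10 (nephron), 10 to 20 (endothelial), 4 to 10 (myeloid) and 0 to 17 (nephron less total RNA).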
